A study of Homo sapiens with 3 samples.

Results

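The luminal breast identity loci are the windows around 8 genes of the luminal and hormone receptor programme, ESR1, PGR, GATA3, FOXA1, ERBB2, XBP1, TFF1 and SPDEF. A p300/CBP peak was counted to a gene when its centre lay within 100 kb of the gene's transcription start site (TSS) on hg19. These 8 windows covered 1.60 Mb without overlapping. They held 36 of the 82901 peaks of control cells and 24 of the 39320 peaks of cells depleted of Fra-1.

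The study profiled p300/CBP by ChIP-seq in MDA-MB-231, a human triple-negative breast cancer cell line, which by definition lacks the estrogen and progesterone receptors and ERBB2 amplification. The siCTL cells received a control siRNA and the siFra-1 cells siRNA against Fra-1, the AP-1 subunit encoded by FOSL1. The paper describes its Fra-1 siRNA as a pool of several. In both conditions the total siRNA was 4.5 nM for 72 h in otherwise unmodified cells. The sample labels give a fixation of 7 min, whereas the paper's ChIP-seq methods give a shorter time, so the time is not settled here. Each condition was 1 sequenced library made from pooled immunoprecipitations and the files give peak positions without heights. There is therefore no test between the conditions, the depth is unknown, and neither the expression of the 8 genes nor the loss of Fra-1 could be checked here. Intervals below are 95% intervals for counting error over peaks, and neighbouring peaks are not independent. An input library of the series was not analysed here.

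p300 and CBP are paralogous acetyltransferases that are brought to promoters and enhancers by transcription factors and acetylate histone tails there, and their ChIP-seq peaks are widely used to find enhancers. In luminal mammary cells the pioneer factor FOXA1 opens chromatin for the estrogen receptor, GATA3 acts with both, and TFF1 is a textbook target of the estrogen receptor. AP-1 dimers of Fos and Jun proteins bind the heptamer TGANTCA, in which the middle base can be C or G.

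Some stretches of sequence behind the peaks described below are given first, from the GRCh37 reference and on the strand of the named gene. All but the FOXA1 widest peak were chosen after their values were seen. The first is the peak at the TFF1 promoter that was present in both conditions, chr21:43786952-43787101 on the minus strand, with capitals marking an imperfect estrogen response element.
TFF1 promoter peak: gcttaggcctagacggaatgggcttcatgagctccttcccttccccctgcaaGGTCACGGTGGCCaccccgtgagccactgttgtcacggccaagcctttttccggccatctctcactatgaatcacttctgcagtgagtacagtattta
The next is the other peak present in both conditions, between genes downstream of FOXA1 at chr14:38052602-38052751 on the minus strand. It held none of the motifs searched and has no capitals.
FOXA1 shared peak: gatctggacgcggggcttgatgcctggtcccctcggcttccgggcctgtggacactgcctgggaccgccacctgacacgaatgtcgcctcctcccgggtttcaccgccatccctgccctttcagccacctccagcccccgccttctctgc
The widest peak of all 8 windows was found after Fra-1 depletion, 48.4 kb downstream of the FOXA1 TSS. Its longest stretch outside annotated untranslated regions is chr14:38015852-38016109, also on the minus strand and without a motif.
FOXA1 widest peak, stretch: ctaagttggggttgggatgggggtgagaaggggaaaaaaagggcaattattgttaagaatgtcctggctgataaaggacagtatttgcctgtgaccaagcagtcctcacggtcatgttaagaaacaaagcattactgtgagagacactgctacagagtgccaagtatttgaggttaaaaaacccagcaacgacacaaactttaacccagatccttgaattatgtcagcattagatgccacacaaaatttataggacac
Further along that peak, at chr14:38016234-38016260, capitals mark a forkhead motif of the FOXA type.
FOXA1 widest peak, FOXA site: aaggctttggTGTTTACacagtgttga
Within introns of GATA3, peaks of the 2 conditions adjoined each other over chr10:8111802-8112001 on the plus strand, and capitals mark a RUNX motif.
GATA3 adjoining peaks: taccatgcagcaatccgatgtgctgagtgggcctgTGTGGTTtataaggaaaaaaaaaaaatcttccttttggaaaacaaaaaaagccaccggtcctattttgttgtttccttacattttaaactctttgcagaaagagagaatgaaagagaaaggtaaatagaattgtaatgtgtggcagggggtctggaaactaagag

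Against the genome, the density of p300/CBP peaks at the 8 loci had an interval that included equality in both conditions. In siCTL, comparisons chosen after seeing the data gave intervals below equality. In siCTL the windows had 22.5 peaks per Mb (95% Poisson interval 15.8 to 31.1), against 29.2 per Mb over chromosomes 1 to 22 and X. That was 0.771 times the genome (0.540 to 1.07), an interval that includes equality. The windows of all protein-coding genes had 33.3 peaks per Mb. Relative to the part of them outside the 8 loci the ratio was 0.674 (0.472 to 0.934), and against the same chromosomes it was 0.640 (0.448 to 0.886). Both of these intervals exclude 1, and both comparisons were chosen after seeing the data. In siFra-1 the 8 windows had 15.0 peaks per Mb (9.61 to 22.3), close to the genome's 13.8, with a ratio of 1.09 (0.696 to 1.62). Against protein-coding windows it was 0.971 (0.622 to 1.44) and against the same chromosomes 0.885 (0.567 to 1.32), so the side of 1 changed with the comparison and each interval included 1. SPDEF alone held 14 of the 36 siCTL peaks, and without it the siCTL density was 0.538 times the genome (0.337 to 0.815), from 22 peaks. SPDEF was left out because it had the most siCTL peaks, so this density could only fall. Its interval is therefore not read against 1.

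The number of peaks in siFra-1 was 0.667 times that in siCTL at the 8 loci (0.380 to 1.15), where the genome gave 0.473 (0.468 to 0.479). The interval at the 8 loci holds both the genome's ratio and 1. Among peaks of at least 150 bp, of which there were 2 and 3, the ratio was 1.50 (0.172 to 18.0). Since the siFra-1 list as a whole is shorter, a lower count at a locus is what most genes show: 82.3% of the 20098 protein-coding genes had a lower count after Fra-1 depletion. Of the 8 genes, 3 had fewer (GATA3, ERBB2 and SPDEF). As many peaks in both conditions, with at least 1 in each, were found at 2 of the 8, ESR1 and PGR, and at 6.13% of all genes. More in siFra-1 were counted at 2 of the 8, FOXA1 and TFF1, and at 7.30% of all genes. No peak in either condition was found at 1 of the 8, XBP1, and at 4.26% of all genes.

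**Figure D1:**
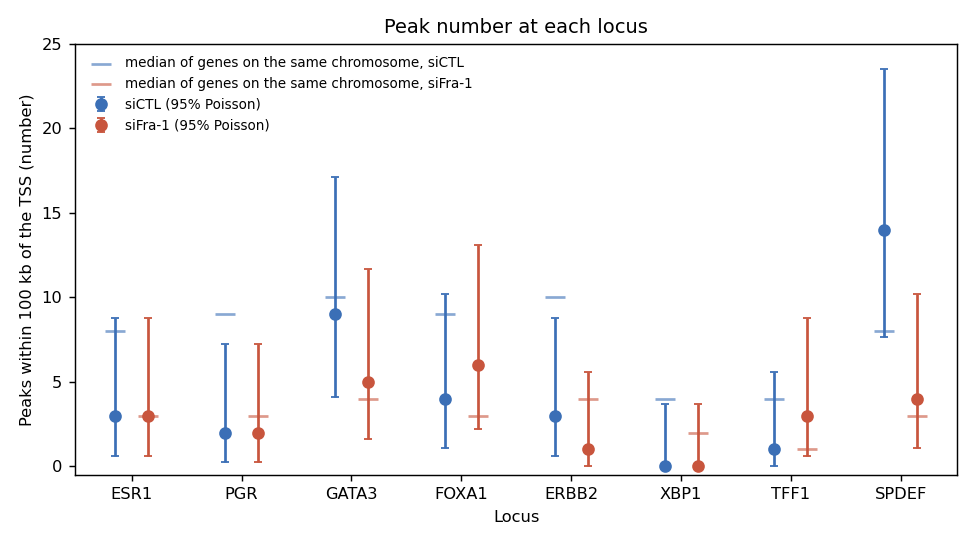
Number of p300/CBP peaks within 100 kb of each TSS (vertical axis) for the 8 genes (horizontal axis) in siCTL (blue) and siFra-1 (red), 1 library each. Bars are 95% Poisson intervals and the short lines mark the median of protein-coding genes on the same chromosome. SPDEF had 14 and 4 peaks and FOXA1 4 and 6, and the intervals of the 2 libraries overlap at every locus.

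The median gene among the 8 had 3 siCTL and 3 siFra-1 peaks, against 6 and 2 over all protein-coding genes. In siCTL, 6 of the 8 lay below the median of all genes, and in siFra-1 2 did. PGR, with 2 siFra-1 peaks, lay at that median and was not counted as below it. Ties affect such small counts, and the share of all genes below each median was not computed. These are counts in 1 library each, and the range among the 8 loci was wide, from 0 to 14 peaks in siCTL and from 0 to 6 in siFra-1.

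Among the receptors, ESR1 encodes the estrogen receptor alpha. Its canonical TSS lies at chr6:152128817, 151 kb downstream of the first annotated start of the gene. The locus had 3 peaks in siCTL and 3 in siFra-1, and all 6 lay in introns of ESR1. The siCTL peaks were centred 90616 bp upstream and 89134 and 98309 bp downstream of the TSS, and those of siFra-1 46966 and 26066 bp upstream and 89484 bp downstream. None overlapped between conditions, although the peaks near 89 kb downstream were 250 bp apart. From the TSS, the closest siCTL peak was at 89.1 kb and the closest siFra-1 peak at 26.1 kb.

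PGR, the progesterone receptor gene and itself a target of the estrogen receptor, starts at chr11:101000544 and had 2 peaks in each condition, none of them in common. The siCTL peaks lay in introns of PGR, 10593 and 19243 bp downstream of the TSS. In siFra-1, 1 peak lay 5857 bp upstream, in an intron of the divergent transcript PGR-AS1, and the other at a PGR exon 98893 bp downstream. The medians of genes on chromosome 11 were 9 and 3 peaks.

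ERBB2 encodes the HER2 receptor tyrosine kinase and starts at chr17:37856317 in a gene-dense stretch, with 8 other coding TSSs within 100 kb where the median gene has 3. It had 3 siCTL peaks and 1 in siFra-1, below the chromosome 17 medians of 10.0 and 4. The siCTL peaks lay far from the ERBB2 TSS, at 83766 bp upstream with NEUROD2 as the nearest start, 53266 bp upstream in a STARD3 intron, and 56134 bp downstream near GRB7. The siFra-1 peak lay in an ERBB2 intron, 18534 bp downstream. Of the 60 peaks of both conditions it was the one with an AP-1 heptamer in its central 200 bp, outside the 100 bp peak itself.

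Of the transcription factors, GATA3, which encodes a zinc-finger factor required for luminal differentiation, had 9 siCTL peaks (4.12 to 17.1) and 5 in siFra-1 (1.62 to 11.7). These are near the chromosome 10 medians of 10.0 and 4. Its TSS is chr10:8096651. The siCTL peaks nearest to it were in GATA3 introns, 13800 and 15300 bp downstream, and the siFra-1 peak at 15200 bp adjoined the latter without overlapping it. The siCTL peaks clustered again at 78200 and 78600 bp and at 92250 and 92600 bp downstream, and a siFra-1 peak at 92950 bp lay 250 bp from the last. The remaining siFra-1 peaks were 40900 bp upstream, in a TAF3 exon, and 46900 and 54750 bp downstream. Genes with 9 siCTL peaks had a median of 4 in siFra-1, so GATA3 stood close to its peers.

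FOXA1, the pioneer factor gene, starts at chr14:38064454 and had 4 siCTL peaks (1.09 to 10.2) and 6 siFra-1 peaks (2.20 to 13.1). Of the 1675 other genes with 4 siCTL peaks, the median had 1 siFra-1 peak and 3.70% had 6 or more. The locus held the single peak of at least 250 bp in all 8 windows, a 500 bp siFra-1 interval at chr14:38015852-38016351 that is centred in an intron of the neighbouring gene MIPOL1. It overlapped no siCTL peak, the nearest being 800 bp away at an MIPOL1 exon. Such wide peaks were usually present in both conditions: 242 of the 1820 siFra-1 peaks of 500 bp or more (13.3%) overlapped none in siCTL. The 500 bp held 2 FOXA, 1 GATA, 1 TEAD and 1 RUNX motif and no AP-1 heptamer. The peak 11.8 kb downstream of the TSS was found in both conditions, with 100 bp in siCTL and 150 bp in siFra-1. The other siCTL peaks lay 3753 bp downstream, at a FOXA1 exon, and 26497 bp upstream in a TTC6 intron. The other siFra-1 peaks lay 7103 and 47803 bp downstream and 38547 and 71247 bp upstream.

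SPDEF, an ETS factor of secretory and luminal epithelium, had the most siCTL peaks of the 8, with 14 (7.65 to 23.5) against 4 in siFra-1 (1.09 to 10.2). Its TSS is chr6:34524106. The siFra-1 count was 0.286 times the siCTL count, with an exact conditional interval of 0.0685 to 0.910 that excludes 1 and holds the genome's ratio of 0.473. Of the 485 other genes with 14 siCTL peaks, 32.4% had 4 or fewer in siFra-1. Peaks 3795, 4295 and 5195 bp upstream of the TSS formed a group in siCTL, and the first held 2 GATA motifs. A siFra-1 peak at 4895 bp upstream overlapped none of them, at a gap of 200 bp to the last. The siFra-1 peak nearest to a TSS among all 8 loci was centred 55 bp downstream of the SPDEF TSS, in the first exon, and held a TEAD motif. Most of the remaining siCTL peaks lay in or near the neighbouring genes ILRUN and PACSIN1.

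XBP1, which encodes a bZIP factor of the unfolded protein response, starts at chr22:29196557 and had no peak in either condition. A count of 0 carries an upper Poisson limit of 3.69 peaks, and genes on chromosome 22 had medians of 4 and 2. The nearest siCTL peak was 121 kb from the TSS and the nearest siFra-1 peak 231 kb. The siCTL distance stood at percentile 95.6 of all protein-coding genes.

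TFF1, which encodes a secreted trefoil peptide, had 1 siCTL peak and 3 in siFra-1, and a peak at its promoter was found in both conditions. Its TSS is chr21:43786644. The siCTL peak was centred 357 bp upstream of it and the siFra-1 peak 382 bp upstream, with the same start. Both held the letters GGTCACGGTGGCC at chr21:43787037-43787049, 399 bp upstream, which differ from the palindromic estrogen response element GGTCANNNTGACC. The imperfect form GGTCANNNTGGCC, added after this sequence was seen, stood in the central 200 bp of 0.0556% of all siCTL peaks and 0.0791% of all siFra-1 peaks. The additional siFra-1 peaks were 15243 bp downstream, which is 298 bp upstream of the TSS of the related gene TFF2, and 24157 bp upstream in a TMPRSS3 intron. Of the 1356 other genes with 1 siCTL peak, 9.22% had 3 or more in siFra-1.

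**Figure D2:**
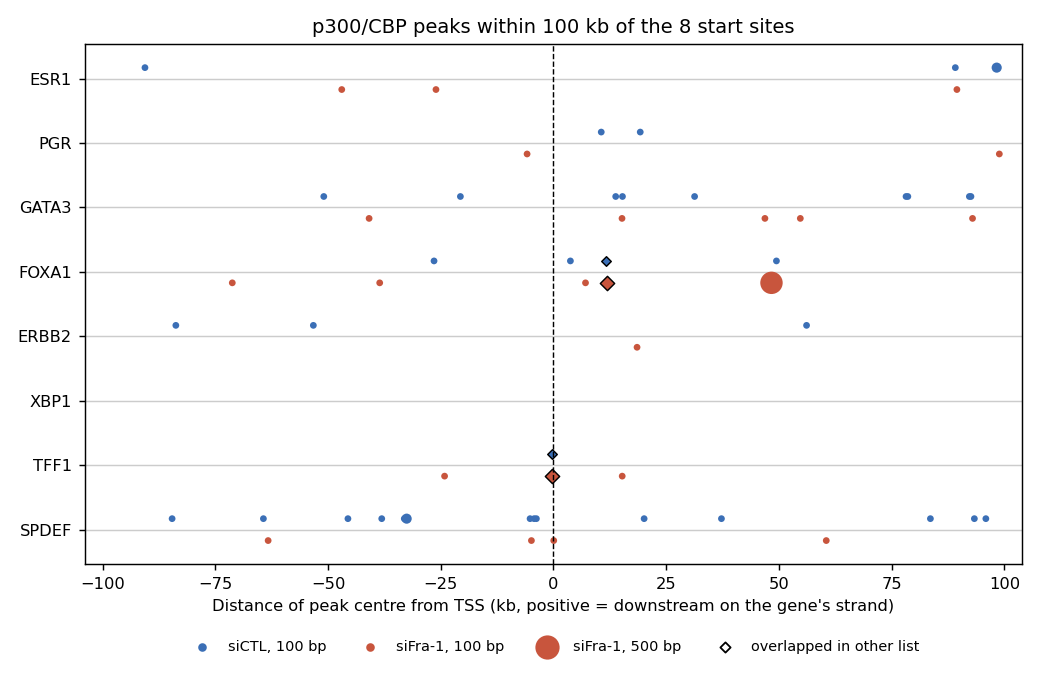
Position of every p300/CBP peak centre within 100 kb of the 8 start sites (horizontal axis in kb, positive values downstream on the gene's strand, 1 row per gene). Blue points are siCTL and red points siFra-1, the point area grows with peak width, and diamonds mark peaks overlapped in the other condition. Diamonds are seen at FOXA1 and TFF1 alone, the 500 bp peak is the large point at FOXA1, and the XBP1 row is empty.

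The peaks were almost all at the smallest width in the lists. In siCTL 34 of 36 were 100 bp wide (94.4%, 95% Wilson interval 81.9 to 98.5), against 83.4% of the rest of that list, a difference of 11 percentage points (-1.56 to 15.1). In siFra-1 21 of 24 were (87.5%, 69.0 to 95.7), against 70.0% of the rest, a difference of 17.5 points (-1.03 to 25.6). Both differences include 0. A siCTL peak of 250 bp or more was found at 0 of the 8 loci and at 22.3% of all protein-coding genes. A siFra-1 peak of that width was found at 1 of the 8, FOXA1, and at 26.7% of all genes. Among the 36 siCTL peaks 0 reached 250 bp, with a 95% Wilson interval up to 9.64%, against 4.40% of the rest. The 8 windows had 3.70 kb covered by siCTL peaks and 2.90 kb by siFra-1 peaks, or 2312 and 1812 bp per Mb where the genome had 3504 and 2210.

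Peaks of at least 250 bp were mostly far from the 8 start sites. Over the 8 genes the median distance to the closest one came to 527 kb for siCTL and 340 kb for siFra-1, against 326 and 252 kb over all genes. GATA3 was nearest in siCTL, at 129 kb, and XBP1 farthest at 822 kb. In siFra-1 FOXA1 was at 48.4 kb and the others between 312 and 822 kb.

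**Figure D3:**
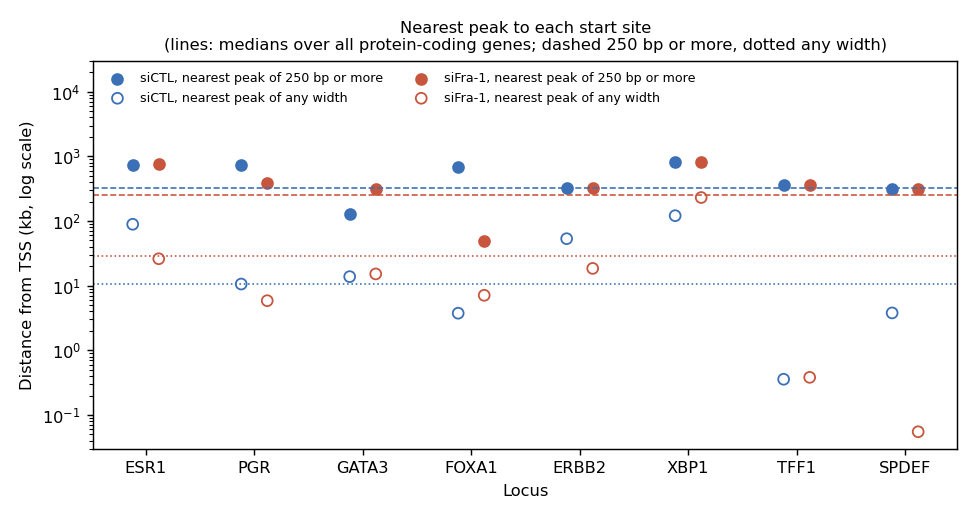
Distance in kb, on a log scale, from each TSS to the nearest peak of any width (open points) and of 250 bp or more (filled points) in siCTL (blue) and siFra-1 (red). Dotted and dashed lines are the medians over all protein-coding genes for any width (10.6 and 28.6 kb) and for wide peaks (326 and 252 kb); TFF1 in both conditions and SPDEF in siFra-1 have a peak under 1 kb from the TSS.

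Of all 60 peaks, those at the same position in both conditions were the pairs at FOXA1 and TFF1. A siCTL peak overlapped by a siFra-1 peak was present at 2 of the 8 loci, FOXA1 and TFF1, and at 32.8% of all protein-coding genes. Of the peaks, 2 of 36 in siCTL were overlapped (5.56%, 1.54 to 18.1), against 9.49% of the rest, a difference of -3.93 points (-7.95 to 8.66). In siFra-1 2 of 24 were (8.33%, 2.32 to 25.8), against 19.0% of the rest, a difference of -10.7 points (-16.7 to 6.83). Neither difference excludes 0. Narrow peaks were seldom overlapped anywhere: of the 100 bp siCTL peaks, 2 of 34 at the 8 loci were (5.88%) and 3.75% of the rest, and of the 100 bp siFra-1 peaks 0 of 21 and 6.52% of the rest. Within 200 bp of a siFra-1 peak lay 11.1% of the siCTL peaks, against 12.3% of the rest (difference -7.93 to 13.0 points), and within 5 kb 36.1% against 29.1% (-6.64 to 23.3). At the distance between, 1000 bp, the interval excluded 0, with 11 of 36 siCTL peaks (30.6%) against 16.7% of the rest, 13.9 points more (1.33 to 30.2). Several of these 11 lay beside the same siFra-1 peak, at SPDEF and at GATA3, so they are not separate sites and the interval is too narrow. In siFra-1 the share within 1000 bp was 8 of 24 (33.3%), against 34.4%.

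In position relative to genes, 9 of the 60 peaks were in exons, 28 in introns and 23 between genes. The named gene was the nearest coding TSS for 46 of the 60, and 15 lay within the gene itself. Within 10 kb of the TSS there were 5 peaks in each condition, a mean of 0.625 per gene against 0.852 over all genes in siCTL and 0.414 in siFra-1. From 10 to 25 kb the means were 0.875 against 1.13 in siCTL and 0.625 against 0.50 in siFra-1. From 25 to 50 kb they were 1 against 1.87 and 0.875 against 0.854. From 50 to 100 kb the 8 genes had a mean of 2 siCTL peaks against 3.70 over all genes, and of 0.875 siFra-1 peaks against 1.71.

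The motifs were counted on both strands in the central 200 bp of each peak. The AP-1 heptamer was in 0 of 36 siCTL peaks, which allows a share of up to 8.33%, against 6.15% of all siCTL peaks, and in 1 of 24 siFra-1 peaks (4.17%) against 9.10%. In the central 400 bp it stood in 8.33% of the siCTL peaks of the 8 loci, against 10.7% of all siCTL peaks, and in 4.17% of the siFra-1 peaks against 14.8%. The FOXA motif (TGTTTAC or TGTTTGC) was in 2 of 36 and 1 of 24 peaks, against 6.74% and 9.71% of all peaks. The GATA motif AGATAA was in 4 of 36 and 2 of 24, against 11.6% and 10.7%. The TEAD motif GGAATGT was in 0 of 36 and 3 of 24, against 3.77% and 5.99% of the rest. The RUNX motif TGTGGTT, which can overlap it by sharing the letters TGT, was in 3 of 36 and 3 of 24, against 4.44% and 6.28%. For AP-1, FOXA, GATA, TEAD and RUNX the difference from the rest in the central 200 bp included 0 in both conditions. The palindromic estrogen response element was in 0 of either condition and in 0.0193% and 0.0153% of the remaining peaks.

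Of the 7 motifs searched beside the added imperfect element, AP-2 (GCCNNNGGC) in siCTL was the one whose difference excluded 0. It was in 7 of 36 siCTL peaks (19.4%, 9.75 to 35) against 4.25% of the rest, 15.2 points more (5.50 to 30.8). SPDEF alone held 4 of the 7. Without that locus, an alternative chosen after seeing the data, the motif was in 3 of 22 (13.6%, 4.75 to 33.3), 9.39 points above the rest (0.50 to 29.1). AP-2 factors are expressed in mammary epithelium and the motif is rich in G and C. The central 200 bp of the siCTL peaks at the 8 loci had a median GC content of 51.0%, against 44% for the rest of that list. By GC content, the motif was in 2 of 11 siCTL peaks below 45% (1.34% of the rest in that class), 1 of 14 from 45 to 55% (4.51%) and 4 of 11 at 55% and over (15.2%). In siFra-1 it was in 2 of 24 peaks against 5.2%. With 7 motifs counted in 2 lists, the part of GC content in this share was not tested beyond these classes.

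Of 3 other gene groups, the 8 loci had a lower density than the other luminal genes and the Fos and Jun genes in both conditions. They were not distinguishable from the mesenchymal factor genes. The 8 genes and these groups were chosen with earlier results of these data known, so the contrasts are descriptions and not tests. The 35 other luminal genes had 42.4 siCTL and 27.8 siFra-1 peaks per Mb, so the 8 loci stood at 0.531 (0.364 to 0.753) and 0.539 (0.337 to 0.828) of their density. TFF3 is among the 35, its window overlaps that of TFF1, and peaks in the overlap were counted on both sides. In that group 24 genes had fewer, 6 as many and 5 more siFra-1 peaks, and 16 had a wide peak, with the highest siCTL counts at RAB25 (20 and 15 in siFra-1), RARA (19 and 10) and ELF3 (18 and 18). The ratio of siFra-1 to siCTL peaks in that group was 0.656 (0.541 to 0.793), above the genome's. The 7 mesenchymal transition factor genes had 32.8 and 16.8 peaks per Mb, and the 8 loci stood at 0.685 (0.429 to 1.09) and 0.893 (0.483 to 1.66) of that, both intervals including 1. The 7 Fos and Jun genes, which encode AP-1 subunits, had 77.1 and 50.7 peaks per Mb, and the 8 loci stood at 0.292 (0.194 to 0.429) and 0.296 (0.178 to 0.476) of them.

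**Figure D4:**
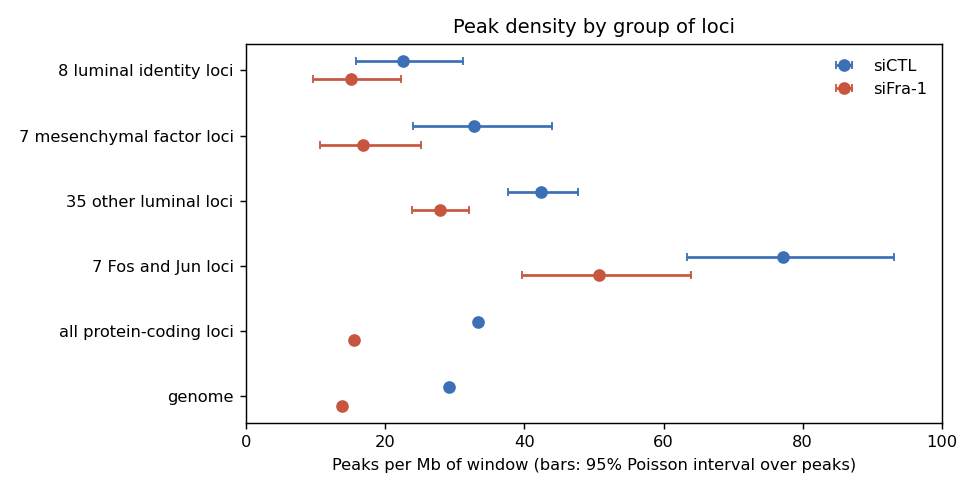
Peak density in peaks per Mb of window (horizontal axis) for the 8 luminal identity loci, 3 other groups of loci, all protein-coding loci and the genome, in siCTL (blue) and siFra-1 (red) with 95% Poisson intervals. The 8 loci lie at 22.5 and 15.0 peaks per Mb, the 35 other luminal loci at 42.4 and 27.8, and the 7 Fos and Jun loci at 77.1 and 50.7.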

How the data were processed

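p300/CBP ChIP-seq peaks were compared between 1 siCTL and 1 siFra-1 library of MDA-MB-231 cells, grouped by the labels. The authors deposited peak positions on hg19 only, with no score, count or height. Their processing notes name Bowtie2 (version not given), whereas the study's methods name another aligner, so which was used is not settled here. Signal was binned in 50 bp, scaled and background-subtracted, then thresholded at 25 with a maximum gap of 50 bp and a minimum run of 50 bp. The replicate immunoprecipitations were pooled before library preparation. Interval ends are deposited values and starts are printed 1-based, which may be off by 1 bp.

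TSSs were those of the MANE Select transcript (18878 genes), the Ensembl canonical transcript (941) or the gene end (279), from GENCODE 44 on GRCh37. All 8 members matched. XBP1 used the Ensembl canonical transcript and the other members MANE Select. A peak was counted to a gene by its centre, and an overlap of at least 1 bp counted as shared. Peaks off chromosomes 1 to 22 and X (292 over both lists) were left out of densities. Density used bases other than N. Poisson, Wilson and Newcombe intervals cover counting error only, and the ratio of 2 counts has an exact conditional interval. No p-value was computed, since each condition has 1 library. Peaks named by rule were those of 250 bp or more and, at each locus, the widest and the nearest to the TSS. Other peaks were described after their values were seen. Of the comparison lists, the 3 genes with most siCTL peaks were named. Some items that the rule names are not reported here. Members and lists were chosen with earlier results of these data known. Calculations used Python 3.11.15, pandas 2.3.3 and scipy 1.17.1, and were tested on simulated data. The alternatives changed the window, the TSS, the minimum width, merging, the overlap rule, the motif window and the locus with most peaks.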

Additional observations from a re-analysis of the deposited data

How the results depend on the processing

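Of 57 alternative values, 46 stayed within the 95% interval of the reported value and 11 moved outside it. For the siFra-1 to siCTL ratio and both densities relative to the genome, the reported interval included 1. The siCTL density was below 1 in all 9 alternatives. Its interval excluded 1 with windows of 250 kb, with peaks of at least 150 bp, against the same chromosomes and against protein-coding windows. It also did so without SPDEF, but that locus was left out for its high siCTL count, which could only lower the density. The siFra-1 density, reported as 1.09, was on the other side of 1 in 6 of 9 and the siFra-1 to siCTL ratio in 1 of 6, with 1 inside the interval each time. No paired analysis was possible because each condition has 1 library. With peaks of at least 150 bp, which leaves 2 siCTL and 3 siFra-1 peaks, the siFra-1 to siCTL ratio was 1.50 (0.172 to 18.0). The siCTL density was then 0.258 (0.0313 to 0.933) and the siFra-1 density 0.453 (0.0934 to 1.32) of the genome's. The shares of overlapped siCTL peaks (0%), overlapped siFra-1 peaks (0%) and siFra-1 peaks with an AP-1 motif (0%) were all 0. With at least 250 bp the siCTL density was 0 and the siFra-1 density 0.297 of the genome's, with overlap and AP-1 shares of 0% in siFra-1 from 1 peak, and the ratio and the siCTL shares could not be given because no siCTL peak remained. Without SPDEF, the locus with most siCTL peaks, the siCTL density was 0.538 of the genome's (0.337 to 0.815). Over the remaining alternatives the ratio ranged from 0.495 to 0.909, the siCTL density from 0.640 to 0.857 and the siFra-1 density from 0.832 (windows of 250 kb) to 1.54 (windows of 50 kb). It was 0.995 with the TSS at the 5-prime end of the gene, 0.885 against the same chromosomes and 0.971 against protein-coding windows, the last 2 comparisons chosen after seeing the data. In windows of 250 kb, with 93 and 46 peaks, the ratio was 0.495 (0.340 to 0.712) and the siCTL density 0.796 (0.643 to 0.976). The number of peaks, 36 and 24, limits the precision of each value.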

Other observations

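TFF3, a trefoil gene of the luminal programme whose window overlaps that of TFF1, had 2 siCTL and 4 siFra-1 peaks. Peaks in the overlap count to both genes, so these counts are not separate from those of TFF1. Of the 7 mesenchymal transition factors, 4 had fewer siFra-1 than siCTL peaks, 2 as many and 1 more. The highest siCTL counts among them were at SNAI1, with 22 siCTL and 13 siFra-1 peaks, and ZEB1, with 12 and 3. All 7 Fos and Jun genes had a lower count in siFra-1, as did 82.3% of all protein-coding genes. Among the 7, FOSL1, which encodes Fra-1 itself, had 21 and 18. The ratio of siFra-1 to siCTL peaks over these loci was 0.657 (0.480 to 0.895), where the genome gave 0.473. TFF3 was named after its values were seen. All are values from 1 library per condition with no test.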
